A study of Schizosaccharomyces japonicus with 6 samples.

Results

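Tj8 is a family of LTR retrotransposons of the fission yeast Schizosaccharomyces japonicus, and 25 annotated Tj8 loci are described here. The members are all rows of the deposited expression table whose identifier begins with Tj8 and no further digit, and no measured value entered the choice. They are 25 of the 266 retrotransposon loci in the table, which belong to 10 families, Tj1 to Tj10. The whole table holds 5152 loci, and the remaining 4886 are other genes. By their identifiers 22 of the Tj8 loci are partial elements, 3 are solo LTRs and 0 are full-length elements. The label could be checked only against these identifiers and the study's element coordinates, which list the same 25 loci.

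The study profiled polyadenylated RNA in dcr1Δ* and wild-type cells with 3 libraries of each strain, all grown in rich medium at 32 °C. Besides the disruption dcr1-dis::natMX6, the dcr1Δ* strain carried the mutation mpe1-R77W, and wild-type cells carried neither. Both strains shared mating type h- with the allele mat-P2028, and both shared the markers ura4-D3 and ade6(sj)-domE. The dcr1Δ* strain is a rare survivor of dcr1 disruption and represents 1 isolate. The study found a few coding mutations by resequencing its survivors and named mpe1-R77W as the strong candidate in this strain. The disrupted dcr1, the changed mpe1 and any other mutation of the isolate occur together and cannot be told apart in it.

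LTR retrotransposons are copied through RNA. The long terminal repeats (LTRs) at their ends hold the promoter and the signal that ends the transcript, and the inner part encodes the capsid protein and the enzymes that make and insert a new DNA copy. A solo LTR is what remains when the repeats at both ends recombine and the inner part is lost, and a partial element is a truncated copy. In S. japonicus such elements are gathered at centromeres and telomeres, where heterochromatin and RNA interference act on them, and Dcr1 is the ribonuclease that makes the small RNAs.

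The only value used for each locus is the authors' average over all 6 libraries of both strains. It is given here as CPM, read counts scaled to library size, converted from the deposited log2 CPM, and as CPM per kilobase (kb) wherever loci of different length are compared. No value for either strain or for a single library was used, so no SD or n stands beside a level and no test was run. A high average may come from dcr1Δ* cells, from wild-type cells or from both, which cannot be told apart here. The transcript of dcr1 was not analysed here, since the locus tags are not paired with gene names. Total counts per library are unknown. The lowest level in the table was 0.0628 CPM, shared by 15 loci, 12 of them retrotransposon loci, and it was read as the level of loci without counted reads. If edgeR's default prior count of 2 lies behind that level, the average library held about 3.184e+07 counts and an average of 3 reads per library corresponded to 0.157 CPM. Reads that mapped to several places were split into fractions by the authors, so the loci of a family share reads and are not independent measurements, and reads from copies that the assembly lacks fall on copies it holds.

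The 25 Tj8 loci spanned from the lowest level of the table to 107 CPM around a median of 1.32 CPM. The 241 loci of the other families had a median of 0.743 CPM. Per length, the medians of Tj8 and of the other retrotransposon loci were close, at 1.35 and 1.38 CPM per kb. The 4886 other genes stood far higher, with a median of 65.6 CPM, and the 4878 of them with a length had a median of 33.4 CPM per kb. Of the 25 Tj8 loci, 19 (76.0%) lay above the level of 3 reads, against 172 of 241 (71.4%) of the other retrotransposon loci and 4864 of 4886 (99.5%) of the other genes. Most Tj8 loci thus had reads, at levels low beside those of genes.

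**Figure D1:**
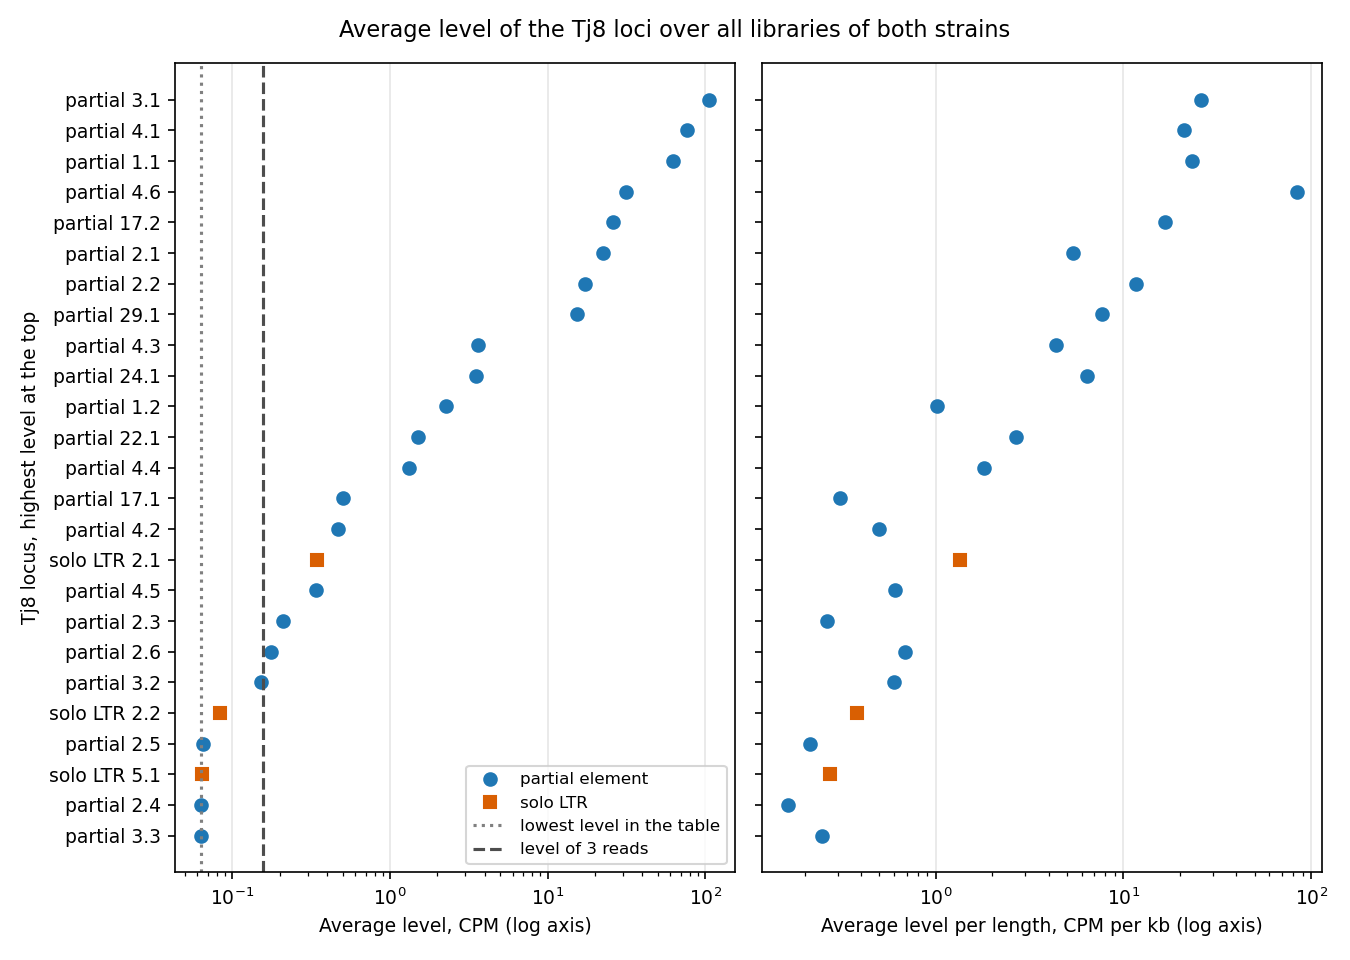
Average level of each Tj8 locus over all 6 libraries of both strains, in CPM on the left and in CPM per kb on the right, both on log axes; circles are partial elements, squares solo LTRs, the dotted line is the lowest level of the table and the dashed line the level of 3 reads. The 8 highest loci lie between 15.4 and 107 CPM with a gap below them down to 3.62 CPM, and partial element 4.6 stands apart per length at 83.8 CPM per kb.

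Partial elements carried nearly all of the Tj8 signal. Summed over its loci the family reached 373 CPM, of which the 22 partial elements held 99.9% and the 3 solo LTRs 0.132%. The highest 3 loci held 65.9% of the sum, the highest 5 held 81.3% and the highest 8 held 96.1%. The lowest 8 loci together held 0.234%.

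The highest level belonged to Tj8_partial_retrotransposon-3.1, at 107 CPM or 25.8 CPM per kb. It lies on supercont5.3 of the SJ5 assembly from 864427 to 868555 on the plus strand and, at 4129 bases, is exceeded in length only by the element 2.1. An average of about 3390 reads per library corresponded to this level under the assumed prior count. It touches an element of family Tj18, which has no level in the table, and the next measured element, Tj9_partial_retrotransposon-3.3, lay 465 bases away at 2.79 CPM per kb.

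The next highest was Tj8_partial_retrotransposon-4.1 on supercont5.4 from 46581 to 50237 (plus strand, 3657 bases), with 76.7 CPM or 21.0 CPM per kb. It touches a Tj2 solo LTR on the same strand, Tj2-type_LTR-4.3, which had 1.71 CPM per kb. On its other side lies a short Tj3 fragment on the opposite strand, Tj3_partial_retrotransposon-4.6, with 0.821 CPM per kb. Both neighbours were thus far lower per length than the Tj8 element between them.

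Tj8_partial_retrotransposon-1.1 had 62.6 CPM or 23.2 CPM per kb and lies on supercont5.1 from 1985707 to 1988401 (plus strand, 2695 bases). It shares 1 base with Tj9_partial_retrotransposon-1.1 on the opposite strand, which had 5.99 CPM per kb, and touches Tj3_partial_retrotransposon-1.3 at 2.38 CPM per kb. The elements 3.1, 1.1 and 4.1 were therefore alike in level per length, between 21.0 and 25.8 CPM per kb, although they lie on 3 different contigs. How far split reads bring such loci together was not tested.

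Tj8_partial_retrotransposon-4.6 stood apart from all other members. This fragment on supercont5.4 from 59607 to 59981 (plus strand) is only 375 bases long, yet had 31.4 CPM, which ranked 4 in the family. Per length it was the highest Tj8 locus by a wide margin, at 83.8 CPM per kb. At that level per length it exceeded 74.0% of the other genes and 97.9% of the other retrotransposon loci. It was the only one of the 25 Tj8 loci above the median gene per length. The Tj2 solo LTR that it touches, Tj2-type_LTR-4.1, had 2.04 CPM per kb, and the full-length Tj5-1, 59 bases away on the opposite strand, had 0.567 CPM per kb.

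The other 4 loci above 10 CPM were partial elements of more than 1 kb on 3 contigs. Tj8_partial_retrotransposon-17.2 (supercont5.17 from 3680 to 5237, minus strand, 1558 bases) had 26.1 CPM or 16.7 CPM per kb. It overlaps Tj9_partial_retrotransposon-17.1 by 2 bases on the same strand, and that element had 11.9 CPM per kb. Tj8_partial_retrotransposon-2.1, at 4213 bases the longest member (supercont5.2 from 1834357 to 1838569, plus strand), had 22.6 CPM but only 5.37 CPM per kb. The longest copy therefore had a lower level per length than the 7 others above 10 CPM.

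Tj8_partial_retrotransposon-2.2 (supercont5.2 from 1846185 to 1847669, minus strand, 1485 bases) had 17.2 CPM or 11.6 CPM per kb. It touches Tj9_partial_retrotransposon-2.3 on the opposite strand, which had 27.1 CPM per kb, so here the neighbour was the higher of the pair. Tj8_partial_retrotransposon-29.1 (minus strand) fills bases 1 to 2014 of supercont5.29 and had 15.4 CPM or 7.64 CPM per kb. It begins at the first base of that contig.

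Below these 8 loci came 9 of intermediate level, from 0.337 to 3.62 CPM. They comprise 8 partial elements between 548 and 2244 bases and 1 solo LTR. The longest of them, Tj8_partial_retrotransposon-1.2 (2244 bases), had 2.26 CPM or 1.01 CPM per kb and lies 20 bases from Tj3_partial_retrotransposon-1.1, which had 14.0 CPM per kb. The element 17.1, of 1642 bases, had 0.504 CPM or 0.307 CPM per kb. These loci show that a long Tj8 copy could have a low level.

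The lowest 8 loci, at 0.0628 to 0.209 CPM, are 6 partial elements and 2 solo LTRs of 221 to 792 bases. Tj8_partial_retrotransposon-2.4 (supercont5.2 from 3833002 to 3833387, plus strand) and Tj8_partial_retrotransposon-3.3 (supercont5.3 from 849763 to 850017, plus strand) stood at the lowest level of the table and were read as having no counted reads. Tj8_partial_retrotransposon-2.5 (supercont5.2 from 3832453 to 3832754, plus strand) was barely above it at 0.0647 CPM. In all, 6 of the 25 Tj8 loci lay at or below the level of 3 reads, where differences between loci are not interpreted. At the lowest level a value per kb depends only on the length of the locus. The elements 2.4 and 3.3 lie wholly inside annotated genes, where reads may have been left out of the counts, which was not tested.

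The 3 solo LTRs were all low. Tj8-type_LTR-2.1 (supercont5.2 from 3830271 to 3830525, plus strand) had 0.345 CPM or 1.35 CPM per kb and was the only solo LTR above the level of 3 reads. Tj8-type_LTR-2.2 (supercont5.2 from 92887 to 93107, plus strand) had 0.0837 CPM and Tj8-type_LTR-5.1 (supercont5.5 from 10602 to 10836, minus strand) had 0.0639 CPM. At 221 to 255 bases the solo LTRs match 3 partial elements of 255 to 257 bases in size, and none of those 6 short loci exceeded 0.345 CPM.

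The level of a Tj8 locus went with its length. The 9 loci of at least 1 kb held 88.4% of the summed CPM, and 7 of them exceeded 10 CPM. The 16 shorter loci held 11.6%, and only the fragment 4.6 exceeded 10 CPM among them. Across the 25 loci, log2 CPM and log2 length had a Pearson correlation of 0.81, and 0.77 over the 22 partial elements. Longer loci collect more reads at the same level per base, but the median level per length was also higher in the long loci, at 11.6 CPM per kb against 0.601 CPM per kb in the loci under 1 kb. These correlations describe loci of 1 family that share libraries and split reads.

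**Figure D2:**
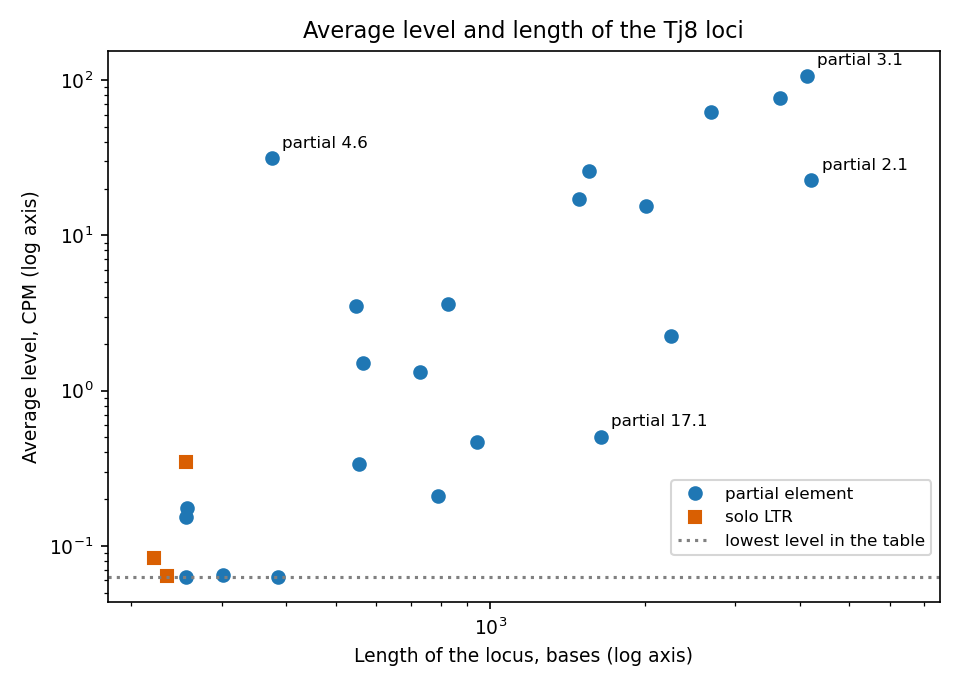
Average level in CPM over all 6 libraries against locus length in bases for the 25 Tj8 loci, both on log axes; circles are partial elements, squares solo LTRs and the dotted line is the lowest level of the table. Levels are higher in longer loci (Pearson correlation of the log2 values 0.81), with the 375-base element 4.6 far above loci of its size and the 1642-base element 17.1 far below.

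Tj8 loci were found on 9 contigs, 16 on the plus strand and 9 on the minus strand. Supercont5.4 held the highest summed level, 113.8 CPM over 6 loci (30.5% of the family), closely followed by supercont5.3 with 106.8 CPM over 3 loci (28.6%). On supercont5.3 nearly all of that came from the element 3.1 alone. Supercont5.1 held 17.4% on 2 loci and supercont5.2 only 10.9% on 8 loci, so the contig with most Tj8 loci was not the one with most Tj8 signal.

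Most Tj8 loci are part of larger clusters of retrotransposons. By the study's element coordinates, 24 of the 25 lie within 1 kb of another Tj element and 19 touch or overlap one, with overlaps of 1 to 3 bases at 6 of them. The exception is the solo LTR 2.2, whose nearest element is 68654 bases away. Within 1 kb, Tj9 elements flank 13 Tj8 loci, Tj3 elements flank 10 and Tj5 elements flank 9. Seen from the other family, 16 of 51 Tj9 elements (31.4%) and 4 of 7 Tj18 elements (57.1%) lie within 1 kb of a Tj8 locus.

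Touching elements of other families often differed from Tj8 in level. For 22 pairs of a Tj8 locus and a touching or overlapping element of another family that has a level, the Tj8 locus was the higher per length in 14 and the neighbour in 8. For Tj8 loci above 10 CPM, Tj8 was the higher in 8 of 9 such pairs, and for the remaining Tj8 loci in 6 of 13. The split at 10 CPM uses the Tj8 level itself, so this difference in counts is a description only. The counts also include the pairs of the elements 2.4 and 2.5, in which both members lay below the level of 3 reads. Which member was higher there is not interpreted. The element 2.4 and Tj2-type_LTR-2.2 were both at the lowest level, where the value per kb depends only on length. The element 3.2, a 256-base fragment with 0.597 CPM per kb, touches Tj9_partial_retrotransposon-3.1 at 33.7 CPM per kb. At 0.153 CPM the element 3.2 lay below the level of 3 reads, so the size of this contrast is not interpreted.

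Tj8 loci that lie next to one another also differed in level per length. Whether such loci are separate copies or pieces of 1 interrupted element was not tested. The elements 4.1 and 4.4 are on the same strand of supercont5.4, 267 bases apart with a Tj3 fragment between them. They had 21.0 and 1.80 CPM per kb, an 11.6-fold difference. On the same contig, the elements 4.3 and 4.6 are 339 bases apart with a Tj2 solo LTR between them and had 4.37 and 83.8 CPM per kb, a 19.2-fold difference. On supercont5.17, the elements 17.1 and 17.2 are separated by 1579 bases that hold a Tj10 fragment, and had 0.307 and 16.7 CPM per kb, a 54.5-fold difference. The elements 2.5 and 2.4, 247 bases apart on supercont5.2, were both near the lowest level. In all, 7 pairs of Tj8 loci lie within 5 kb of each other. The 3 pairs with both loci above the level of 3 reads are those described with differences of 11.6-fold to 54.5-fold. Each of the other 4 pairs holds a locus at or below that level, so their ratios of 1.32 to 8.31 are not interpreted.

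**Figure D3:**
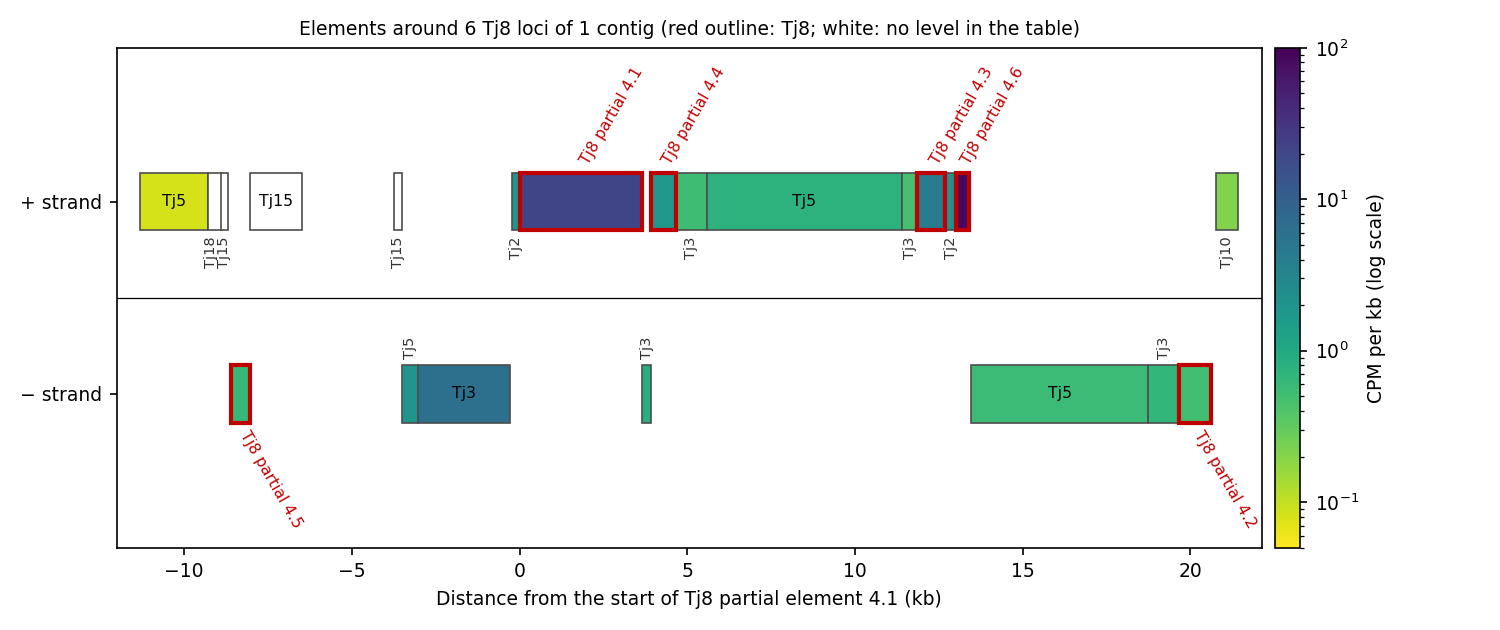
Map of the retrotransposon elements around the 6 Tj8 loci of supercont5.4, by distance in kb from the start of element 4.1 and by strand; boxes are to scale, coloured by average level in CPM per kb on a log scale, with Tj8 outlined in red and elements without a level in white. Elements 4.1 (21.0 CPM per kb) and 4.6 (83.8 CPM per kb) are darkest, and the other 4 Tj8 loci and the surrounding Tj2, Tj3, Tj5 and Tj10 elements lie lower.

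A few low Tj8 loci overlap annotated protein-coding genes. On the 3 long contigs whose genes could be placed, the element 2.4 lies wholly inside SJAG_03765 (supercont5.2 from 3832986 to 3833673), and the element 3.3 wholly inside SJAG_04448 (supercont5.3 from 849729 to 850832). The element 2.5 shares 145 bases, 48.0% of its length, with SJAG_03766 (supercont5.2 from 3832136 to 3832597). These 3 Tj8 loci had at most 0.0647 CPM. SJAG_03765 itself had 1.08 CPM per kb, SJAG_04448 had 6.56 CPM per kb and SJAG_03766 had 17.3 CPM per kb. By position these genes are themselves largely retrotransposon sequence. SJAG_03766 lies wholly within Tj18_partial_retrotransposon-2.3 and the element 2.5. Most of SJAG_04448 lies within Tj18_partial_retrotransposon-3.1 and the element 3.3. SJAG_03765 overlaps Tj5-type_LTR-2.1 and Tj2-type_LTR-2.2 besides the element 2.4. The counting settings that the study's methods name concern reads with several positions, and none is named for reads that fall on 2 annotations. By default featureCounts leaves such reads out. The part of this in the low levels of these 3 loci was not tested. The level of the Tj8 locus and that of the overlapping gene cannot be told apart at these positions.

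Beside the other families, Tj8 was intermediate. Its summed 373 CPM ranked 4 of 10 families, after Tj7 with 4060 CPM, Tj6 with 998 CPM and Tj9 with 603 CPM, and ahead of Tj2 with 308 CPM. It ranked 5 by the median CPM of its loci and 6 by the median per length, at 1.35 CPM per kb against 6.50 CPM per kb for Tj7, the highest family. Tj4 ranked last, and its median fell on a locus at the lowest level of the table, so no value per length is given for it. The summed level of Tj8 per summed length was 12.0 CPM per kb, which ranked 4 of 10. The other families together had 22.2 CPM per kb. Tj7 alone held 62.0% of the CPM of the 266 loci, and without it the 219 remaining loci of the other families had 8.02 CPM per kb. Tj8 likewise held 5.70% of the summed CPM on 10.1% of the summed length of all 266 loci, and 15.0% of the CPM on 10.6% of the length without Tj7. Whether Tj8 was above or below the other families per summed length thus rested on Tj7. The study reported more DNA copies of Tj7 in dcr1Δ* cells, so the level of Tj7 per annotated length may include reads from copies not annotated. How far it does was not tested. As a share of the whole table, the Tj8 loci made up 0.0372% of the CPM, and the 266 loci of Tj1 to Tj10 together 0.653%. Annotated genes that lie within elements are not in that share.

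The families differ in make-up, and solo LTRs are 3 of the 25 Tj8 loci and 60 of the 241 others. Among partial elements alone the median was 2.23 CPM per kb for Tj8 and 1.61 CPM per kb for the other families. Among loci of at least 500 bases it was 4.87 CPM per kb over 16 Tj8 loci and 2.36 CPM per kb over 118 others. The order of the medians of Tj8 and the other families thus depended on which loci were compared. The highest single Tj8 locus, at 83.8 CPM per kb, was above the highest Tj9 locus (48.5 CPM per kb) and below the highest Tj6 and Tj7 loci (110 and 1041 CPM per kb).

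**Figure D4:**
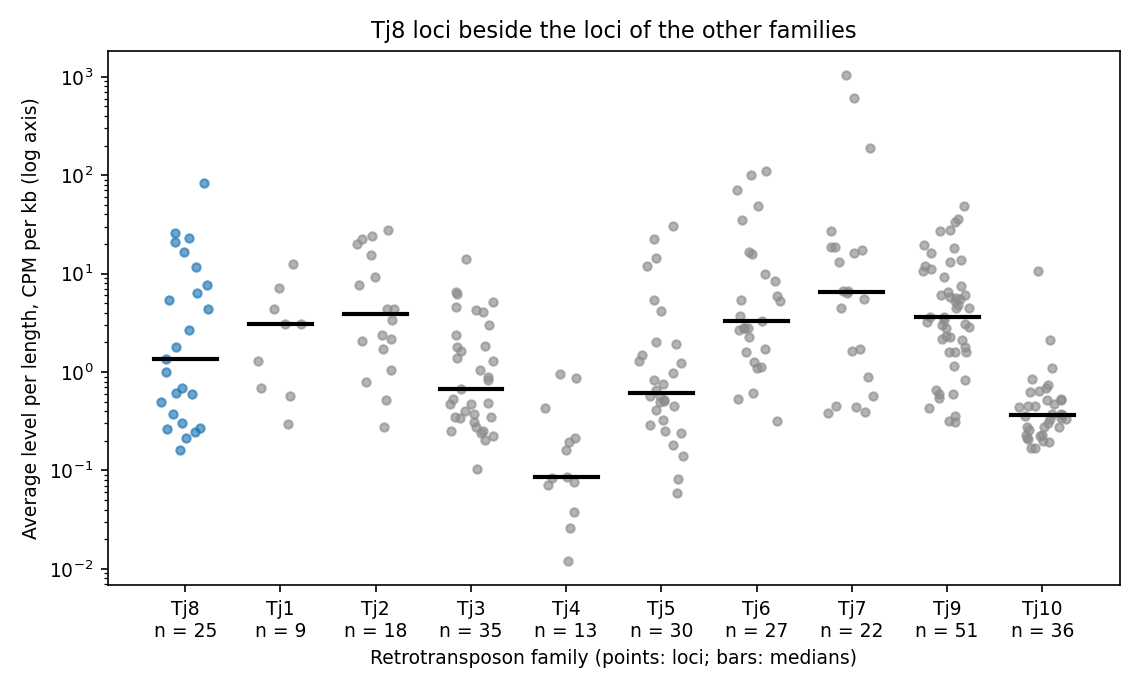
Average level per length, in CPM per kb on a log axis, of every Tj1 to Tj10 locus in the table by family, with Tj8 at the left in blue. Points are loci, bars medians and n the number of loci. The median of Tj8 (1.35 CPM per kb) ranks 6 of the 10 families, and its highest locus has 83.8 CPM per kb; points of loci at the lowest level of the table depend only on locus length.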

How the data were processed

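Polyadenylated RNA was sequenced paired-end from stranded libraries, 3 of dcr1Δ* and 3 of wild-type cells. Per the submitters' processing notes the reads were trimmed with Trim Galore 0.4.3.1, aligned with STAR 2.7.2b, counted with featureCounts 2.0.1 and analysed with edgeR 3.34.0. The reference was the SJ5 assembly, and reads with several positions were counted in fractions. The normalization, the filter on low counts and the strand setting are not given in the sources used here. The deposited table gives for each locus an average log2 CPM that the authors computed over all 6 libraries. Its other 4 columns hold the authors' comparison of dcr1Δ* with wild-type cells (the fold change on a log2 scale, the F statistic, its p-value and the false discovery rate) and were not used, so no comparison of strains was made here. Values per library were not analysed here, so depth per sample is unknown and no interval was computed.

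CPM was computed as 2 to the power of the log2 CPM, and CPM per kb by division by locus length. Element positions and lengths came from the study's element coordinates, whose starts were read as counted from 0 and are given counted from 1. They cover 396 elements of 21 families. RefSeq gene positions for SJ5 came without contig names. Genes were placed on the 3 long contigs by the runs in which their positions rise, and in the order used genes overlapped Tj1 to Tj10 elements by 2439 bases, against 40729 to 103373 bases for the other 5 orders. No genome sequence was used, so no sequences are shown. All Tj8 loci could be named, with full values for the 8 highest, those at the lowest level, solo LTRs and loci overlapping a gene or element. Touching neighbours and adjacent Tj8 loci were singled out after their values were seen. The members and lists were chosen with earlier results of these data known. Alternatives left out loci, subtracted the lowest level or changed the scale, threshold or distance. Scripts were tested on simulated data and run with Python 3.11.15, using matplotlib 3.10.9, pandas 2.3.3 and numpy 2.4.6.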

Additional observations from a re-analysis of the deposited data

How the results depend on the processing

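Of 30 alternatives to 10 results, 17 left the value within 1.5-fold, 10 percentage points, the same rank or 0.1 of a correlation. Leaving out loci under 500 bases moved the median to 3.56 CPM for Tj8 and 3.41 CPM for the other retrotransposon loci, and leaving out solo LTRs moved the median of the other retrotransposon loci to 1.12 CPM. The number of Tj8 loci was 8 above 10 CPM in place of 19 above the level of 3 reads. Tj8 ranked 6 by median CPM per kb and by median CPM without solo LTRs, and 4 by summed CPM and by summed CPM per summed kb, in place of 5. The correlation with length was 0.57 with CPM per kb. Leaving out Tj7 moved the summed level per summed length of the other families to 8.02 CPM per kb, in place of 22.2, and the share of Tj8 in the summed CPM to 15.0%, in place of 5.70%. The rank by summed CPM per summed kb, the correlation with CPM per kb and the values without Tj7 were alternatives chosen after seeing the data. Within 300 bases 4 Tj8 loci, and within 5 kb 11, had another Tj8 locus nearby, in place of 6 within 1 kb. No paired analysis was possible because the values used are averages over all libraries, and for the same reason no library could be left out. Levels at or under 0.157 CPM stand for an average of at most 3 reads per library under the assumed prior count, and 3 of the 6 Tj8 loci there overlap annotated genes. The solo LTR 5.1, also among the 6, lies on a contig whose genes could not be placed and was not checked.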
